A study of Cryptomeria japonica with 72 samples.

Results

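reCj15810 is 1 target sequence on a custom microarray of *Cryptomeria japonica* (Japanese cedar), which held 15559 targets with 3 spots and 3745 with 4, reCj15810 among these, and its annotation names it an NAD(P)-binding Rossmann-fold superfamily protein with the Arabidopsis gene AT4G03140 as best match. It was chosen by its measured values, because among the targets detected on every base and middle array it had the largest rise at the base of cuttings from excision to 6 weeks after insertion. Stem cuttings of clone Tsukuba 1, cut from donor trees aged 18 years, were set in soil, and at each of 8 times 3 cuttings were divided into base, middle and needles. The times were 0 hours post excision (hpe), 0 and 3 hours (hpi), 1 and 3 days (dpi) and 1, 3 and 6 weeks (wpi) post insertion, and the bases taken at 6 wpi carried roots. RNA of each of the 72 samples, labelled with Cy3, was hybridized to 1 array, which gave 24 groups of 3 arrays. All cuttings shared 1 genotype, and the samples held no uncut shoots of the later times, so time after excision and season cannot be told apart.

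The Rossmann fold is a nucleotide-binding fold of alternating strands and helices that holds NAD or NADP, the carriers of electrons in most oxidations and reductions of the cell. Proteins built on it include dehydrogenases and reductases of primary metabolism, of phenylpropanoid and terpenoid synthesis and of hormone metabolism. The annotation gives neither a substrate nor a reaction for reCj15810. Adventitious roots arise from tissue that was not root before, here at the cut end of the stem, after a wound response and the resumption of cell division.

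Values are the log2 ratio of a target's mean spot signal to the signal at the 75th percentile of its array, so that a value of 0 equals that percentile, and they compare samples for 1 target and not targets with each other. reCj15810 had 4 spots per array, and all 288 were uniform and none was saturated. The processed signal of single spots ran from 27.1 to 75159, and the spots of 1 array differed by a median coefficient of variation of 4.97% and by at most 15.1%. The target was well above background on all 72 arrays. Differences between spots were therefore small beside the differences between arrays described here.

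The 75th percentile of the signal ran from 455 to 1418 on needle arrays, from 299 to 1764 on middle arrays and from 162 to 1133 on base arrays. The arrays lay on 9 slides of 8 arrays, 6 of them with base and needles and 3 with the middle only, so slide and part cannot be told apart for base against middle. The array on which most targets stood apart from the rest of their group was base 3 hpi replicate 2, with 17.3% of 9175 targets more than 1 log2 unit outside the other arrays of its group. It was followed by middle 6 wpi replicate 2 (14.7%), base 0 hpe replicate 3 (10.4%) and middle 0 hpe replicate 3 (8.46%), and the median over the 72 arrays was 1.16%. The summed signal of 5 photosystem and ferredoxin targets (PSAL, LHCA4, PSBW, PSBTN and FED A), which the study listed from these arrays, ran from 6.62 to 8.15 (log2) on needle arrays, from 4.65 to 7.53 on middle arrays and from -0.16 to 7.09 on base arrays. That of 3 targets of the root-patterning genes SHR and SCR ran from 1.33 to 2.89, from 0.05 to 2.30 and from -1.10 to 1.61 on the same arrays, a sum in which the SCR target was the brightest. The highest group mean of the SHR target reCj23597 was -3.74 in needles, -3.43 in the middle and -1.87 at the base. That of the SHR target reCj24821 was -3.28, -2.06 and -1.44 in the same parts. The SCR target reCj20794 went the other way, with 2.69, 1.78 and 1.37. At the base the sum of the 3 ran from 1.35 to 1.61 at 0 hpe and from -0.80 to 0.03 at 6 wpi. The study named further SCR homologs, which were not included, so this sum does not stand for root-patterning genes in general.

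The signal of reCj15810 at the base was near its lowest at excision and stayed near its highest from 3 dpi to 6 wpi. The 3 replicates had values of -2.07, -3.11 and -3.65 at 0 hpe and of -1.06, -1.99 and -1.46 at 0 hpi. At 3 hpi they had 0.41, 4.49 and 0.23, and at 1 dpi 4.15, 6.33 and 6.11. Every base array from 1 dpi on was above every base array of 0 hpe and 0 hpi, and at 3 hpi replicate 2 was about 4 log2 units above the other two, which lay close together. The arrays of 3 dpi had 6.89, 6.67 and 7.06 and those of 1 wpi 6.34, 6.92 and 7.35. Those of 3 wpi had 6.33, 5.79 and 6.61 and those of 6 wpi 5.72, 7.07 and 5.78. These 12 arrays spanned less than 2 log2 units, and of their 4 groups only 3 dpi and 3 wpi did not overlap.

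**Figure D1:**
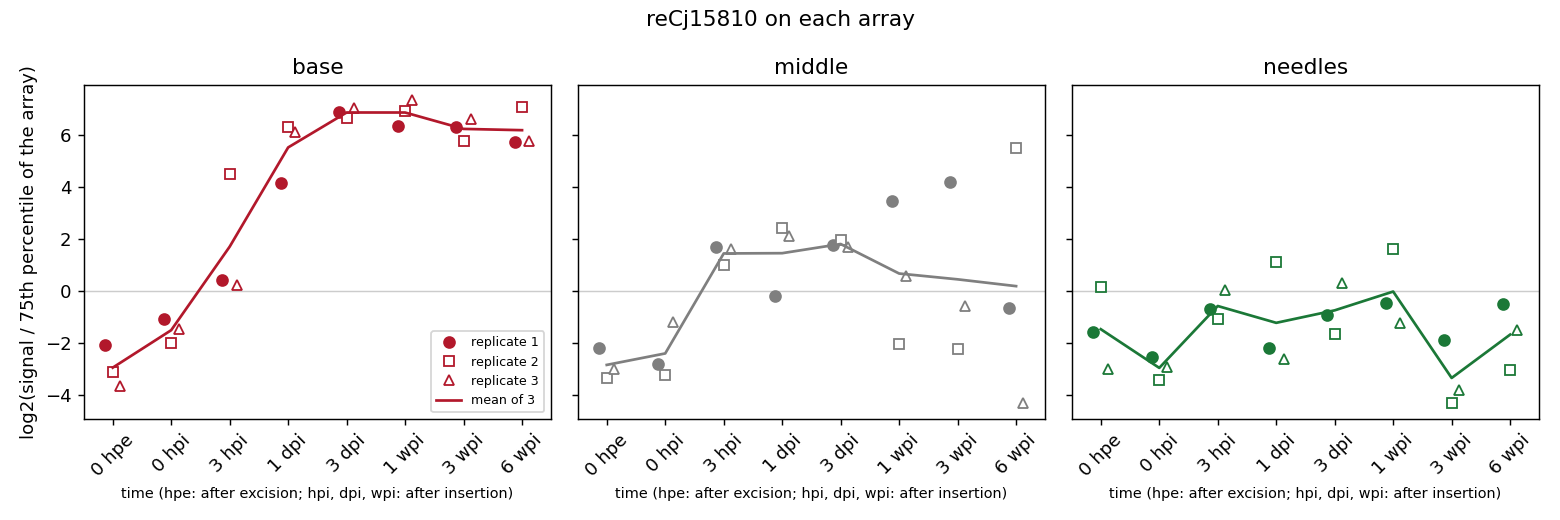
Level of reCj15810 on each of the 72 arrays, as log2 of the signal over the 75th percentile of the array, against time after excision or insertion. Symbols are the 3 replicates of a group and lines their means. Base arrays lie between -3.65 and -1.06 at 0 hpe and 0 hpi and between 5.72 and 7.35 from 3 dpi on, middle arrays spread from -4.30 to 5.52 at 6 wpi, and no needle array is above 1.62.

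The rise that chose the target was from the group mean at 0 hpe to that at 6 wpi. The mean was 6.19 ± 0.76 at 6 wpi and -2.94 ± 0.80 at 0 hpe (SD, n = 3 each), a log2 difference of 9.14 or 563-fold. It is given as a description with no test. No slide held base arrays of both times, so slide and time cannot be told apart in this difference. On the slide of base 0 hpe replicate 2 (-3.11), base 1 dpi replicate 2 had 6.33 and base 3 dpi replicate 1 had 6.89. The target with the next largest rise, reCj32787, had 4.79 ± 1.42 at 6 wpi and -3.41 ± 2.25 at 0 hpe (SD, n = 3 each), a log2 difference of 8.20. The difference of reCj15810 from 0 hpe was larger at 3 dpi and 1 wpi than at 6 wpi, with 9.82 at both earlier times and 9.19 at 3 wpi. The group at 0 hpi was 1.44 above that at 0 hpe, and the lowest array at 0 hpi, with -1.99, was just above the highest at 0 hpe, with -2.07.

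While reCj15810 was high, the signal of the 5 green-tissue targets at the base was low. Their sum ran from 6.43 to 7.09 (log2) on the 0 hpe arrays, from 5.65 to 6.05 on those of 0 hpi, from 3.28 to 4.40 on those of 3 hpi and from 3.45 to 4.06 on those of 3 dpi. At 6 wpi it was between -0.16 and 1.63. These sums kept falling after 3 dpi, when reCj15810 was level, and their part in its values was not tested. In such bulk pieces, fewer cells of a type and less RNA per cell cannot be told apart.

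The groups compared in tests of reCj15810 were those the choice had not used, the base from 0 hpi to 3 wpi and all of the middle and the needles. In fits of base and middle or of all parts, the estimate of spread also drew on the base arrays of 0 hpe and 6 wpi. Base and middle pieces of 0 hpe came from the same cuttings. Their same-numbered deviations from the group means correlated over targets with r = 0.94, 0.75 and 0.95. Tests of the middle against 0 hpe were thus not independent of the choice. They were made with limma over all targets detected on every array of the parts compared, and a target is named called where its p, adjusted by the Benjamini-Hochberg method over those targets, was below 0.05 and its log2 difference at least 1 in size. Between successive times at the base, 1 of 5 steps of reCj15810 was called, that at 1 dpi against 3 hpi. The mean was 5.53 ± 1.20 at 1 dpi and 1.71 ± 2.41 at 3 hpi (SD, n = 3 each), a log2 difference of 3.82 (SE 1.47, adjusted p = 0.0404), where 16.3% of 9592 targets were called. Replicate 2 at 3 hpi, with 4.49, was above replicate 1 at 1 dpi, with 4.15, so the groups overlapped. Without that 3 hpi array the difference was 5.21 (adjusted p = 0.0104), whereas the call was lost without either of the other 3 hpi arrays or without replicate 2 or 3 at 1 dpi (adjusted p between 0.109 and 0.157). With slide as a block it was 4.18 (adjusted p = 0.00496).

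The step before it, at 3 hpi against 0 hpi, was 3.21 (SE 1.47, adjusted p = 0.0884) and was not called, with means of 1.71 ± 2.41 at 3 hpi and -1.50 ± 0.46 at 0 hpi (SD, n = 3 each). All arrays at 3 hpi were above those at 0 hpi, and 17.4% of targets were called in this step. No slide held base arrays of both 0 hpi and 3 hpi. Without base 3 hpi replicate 2 the difference was 1.82 (adjusted p = 0.443). The later steps were 1.34 at 3 dpi against 1 dpi (adjusted p = 0.706), -0.00 at 1 wpi against 3 dpi (adjusted p = 1.00) and -0.63 at 3 wpi against 1 wpi (adjusted p = 0.837), each with an SE of 1.47. Their 95% intervals ran from -1.64 to 4.33, from -2.99 to 2.98 and from -3.62 to 2.35. These intervals rest on a spread shared by all base and middle groups. Middle arrays varied more, with a pooled SD of 2.43 against 1.07 for base arrays. With that shared spread, changes of several-fold in either direction were within the error, and 0.615%, 0.0104% and 1.56% of targets were called. Fitted on only the arrays compared, the 3 later steps had SEs of 0.55, 0.28 and 0.32. None of them was called there either (adjusted p = 0.430, 0.999 and 0.296).

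In the middle of the same cuttings reCj15810 had a moderate level at 3 hpi to 3 dpi and then parted between cuttings. At 0 hpe the replicates had -2.19, -3.34 and -3.00 and at 0 hpi -2.79, -3.24 and -1.17. The values were 1.71, 1.02 and 1.62 at 3 hpi, -0.19, 2.44 and 2.13 at 1 dpi and 1.77, 1.96 and 1.71 at 3 dpi. All 9 arrays of these 3 times were above all 6 arrays of 0 hpe and 0 hpi. At 1 wpi the values were 3.47, -2.03 and 0.59, at 3 wpi 4.20, -2.24 and -0.59 and at 6 wpi -0.65, 5.52 and -4.30. Replicate 1 was the highest at 1 and 3 wpi and replicate 2 at 6 wpi, and the lowest array of each of these groups was near or below the level seen at excision.

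The spread at 6 wpi, with an SD of 4.96, was the widest of the 24 groups, and the range from -4.30 to 5.52 was 904-fold on this scale. Over all middle groups the pooled SD of reCj15810 was 2.43, against a median of 0.25 over the 9175 targets detected on every array, and 99.98% of those targets had a lower SD. At the base the pooled SD was 1.07, above that of 98.4% of targets, and in needles it was 1.30, above that of 99.7%.

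Against 0 hpe, reCj15810 was called higher in the middle at 3 hpi, 1 dpi and 3 dpi. From a mean of -2.84 ± 0.59 for 0 hpe, the later means were 1.45 ± 0.37 (3 hpi), 1.46 ± 1.44 (1 dpi) and 1.81 ± 0.13 (3 dpi), with the SD and n = 3 each. The log2 differences were 4.29 at 3 hpi (adjusted p = 0.0190), 4.30 at 1 dpi (adjusted p = 0.0180) and 4.65 at 3 dpi (adjusted p = 0.0232), each with an SE of 1.47 and with arrays apart. Of 9592 targets, 19.7%, 19.8% and 9.14% were called at these times. The differences of 0.44 at 0 hpi (adjusted p = 0.843), 3.52 at 1 wpi (adjusted p = 0.1202), 3.29 at 3 wpi (adjusted p = 0.561) and 3.03 at 6 wpi (adjusted p = 0.250) were not called, and 9.77%, 4.21%, 0.073% and 1.86% of targets were.

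All 3 middle arrays of 0 hpe lay on 1 slide, and with slide as a block none of the 3 calls held. The differences were then 2.87 at 3 hpi (adjusted p = 0.351), 3.34 at 1 dpi (adjusted p = 0.205) and 3.69 at 3 dpi (adjusted p = 0.226). Within that slide the 3 arrays of 0 hpe, at -2.19, -3.34 and -3.00, were below the single arrays of 1 dpi (2.13), 3 dpi (1.96), 1 wpi (0.59) and 3 wpi (-0.59), and that of 6 wpi was at -4.30. Each call was also lost when single arrays were left out, among them 0 hpe replicate 2 (adjusted p of 0.0618 at 3 hpi, 0.0607 at 1 dpi and 0.0862 at 3 dpi). At 6 wpi the difference was 0.37 (adjusted p = 0.959) without middle 6 wpi replicate 2 and 5.28 (adjusted p = 0.0215) without replicate 3.

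Set beside the middle at the same time, the base was called higher in reCj15810 from 3 dpi to 3 wpi and not called at the 3 earlier times tested. At 0 hpi the mean was -1.50 ± 0.46 at the base, against -2.40 ± 1.09 in the middle (SD, n = 3 each), a log2 difference of 0.89 (SE 1.47, adjusted p = 1.00). At 3 hpi it was 1.71 ± 2.41 at the base, against 1.45 ± 0.37 in the middle (SD, n = 3 each), a difference of 0.26 (adjusted p = 0.932), and -1.13 without base 3 hpi replicate 2. The 95% intervals ran from -2.09 to 3.88 and from -2.72 to 3.25, and at these times 0.104% and 4.95% of 9592 targets were called.

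At 1 dpi all base arrays, at 4.15 or more, were above all middle arrays, at 2.44 or less, and the difference of 4.07 was not called (SE 1.47, adjusted p = 0.0536), with 5.83% of targets called. It was called with the replicate number as a block (adjusted p = 0.0274), on only the arrays compared (adjusted p = 0.0323), with normexp background correction (adjusted p = 0.0407) and without a filter on dim spots (adjusted p = 0.0444). At 3 dpi the mean was 6.87 ± 0.20 at the base, against 1.81 ± 0.13 in the middle (SD, n = 3 each), a difference of 5.06 or 33.4-fold (SE 1.47, adjusted p = 0.0105). At 1 wpi it was 6.87 ± 0.51 at the base, against 0.68 ± 2.75 in the middle (SD, n = 3 each), a difference of 6.19 or 73.3-fold (adjusted p = 0.00147). At 3 wpi it was 6.24 ± 0.41 at the base, against 0.45 ± 3.34 in the middle (SD, n = 3 each), a difference of 5.79 or 55.3-fold (adjusted p = 0.00182). The SE was shared by all base and middle groups, so the order of these p does not reflect the spread at each time. Over the alternative settings, adjusted p ran from 0.000226 to 0.0174 at 3 dpi and from 0.000866 to 0.00979 at 1 wpi. At 3 wpi it ran from 0.00102 to 0.0190. The arrays were apart at all 3 times, and the calls held without any single array. The size rested on single middle arrays and was 7.59 without replicate 1 and 4.84 without replicate 2 at 1 wpi, and 7.66 without replicate 1 and 4.44 without replicate 2 at 3 wpi. No slide held both parts, so the part of slide in these differences was not tested. The share of targets called was 10.9% at 3 dpi, 18.2% at 1 wpi and 21.1% at 3 wpi, and the median difference over all targets was between 0.11 and 0.16 there.

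At the ends of the series, on arrays that the choice of the target used, the values are a description. The mean at 6 wpi was 6.19 ± 0.76 at the base, against 0.19 ± 4.96 in the middle, and at 0 hpe it was -2.94 ± 0.80 at the base, against -2.84 ± 0.59 in the middle (SD, n = 3 each). Middle 6 wpi replicate 2, with 5.52, came close to the lowest base array of that time, with 5.72. In same-numbered arrays from 1 dpi to 6 wpi the base exceeded the middle in 15 of 15 pairs, by 1.55 to 10.1 log2 units. These pairs include the base arrays of 6 wpi that the choice used. The base change from 0 hpi to 3 wpi less the middle change was 4.89 (SE 2.08, adjusted p = 0.0857) and was not called, where 13% of targets were. Without middle 3 wpi replicate 1, which held 4.20, it was 6.76 (adjusted p = 0.0218).

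**Figure D2:**
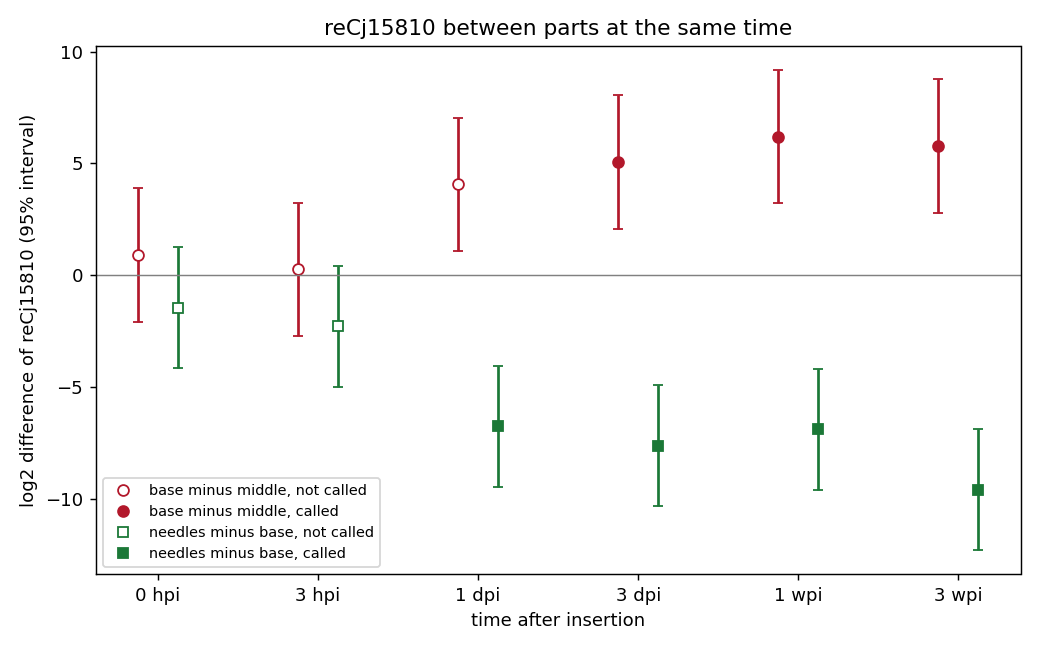
Log2 difference of reCj15810 between parts at the same time, on the 6 times whose base arrays were not used to choose the target. Circles are base minus middle and squares needles minus base, bars are 95% intervals from the fit over all targets, and filled symbols were called. Base minus middle is 0.26 at 3 hpi and at least 5.06 from 3 dpi on, and needles minus base lies between -9.58 and -6.75 from 1 dpi on.

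In needles reCj15810 stayed low at all times. Over the 24 needle arrays the lowest value was -4.32, at 3 wpi, and the highest 1.62, at 1 wpi. The replicates had -1.57, 0.15 and -2.98 at 0 hpe, -2.52, -3.41 and -2.93 at 0 hpi, -0.68, -1.07 and 0.03 at 3 hpi and -2.19, 1.13 and -2.61 at 1 dpi. Replicate 2 was the highest at 0 hpe and at 1 dpi, and each of these groups overlapped that at 0 hpe. The values were -0.90, -1.64 and 0.31 at 3 dpi, -0.45, 1.62 and -1.22 at 1 wpi, -1.89, -4.32 and -3.81 at 3 wpi and -0.49, -3.02 and -1.51 at 6 wpi. The 3 arrays of 3 wpi were below all arrays of 3 hpi, 3 dpi and 1 wpi.

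Against 0 hpe, with a mean of -1.47 ± 1.57 (SD, n = 3), none of the 7 later times was called in needles. The log2 differences, each with an SE of 0.98, were -1.49 at 0 hpi (adjusted p = 0.273), 0.89 at 3 hpi (adjusted p = 0.535), 0.25 at 1 dpi (adjusted p = 0.906) and 0.73 at 3 dpi (adjusted p = 0.719). They were 1.45 at 1 wpi (adjusted p = 0.411), -1.88 at 3 wpi (adjusted p = 0.159) and -0.21 at 6 wpi (adjusted p = 0.886). With slide as a block the direction turned at 3 wpi (1.20) and at 6 wpi (2.87), neither of them called. Needle arrays of 0 hpe shared no slide with those of 3 or 6 wpi. These blocked estimates thus rested on other times that linked the slides, and slide and time could hardly be separated. The 95% intervals reached down to -3.93 at 3 wpi and up to 3.50 at 1 wpi, so moderate changes could not be seen with 3 arrays. Of the 12523 targets tested in needles, 9.76% were called at 0 hpi, 9.19% at 3 hpi and 3.77% at 1 dpi. The share was 1.45% for 3 dpi, 1.47% for 1 wpi, 10% for 3 wpi and 13% for 6 wpi.

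Needle and base arrays of the same time and number lay on the same slide in all 24 cases. From 1 dpi to 6 wpi the needles were below the base in 15 of 15 such pairs of arrays, by 5.19 to 10.4 log2 units. The pairs of 6 wpi hold base arrays that the choice of the target used, so this count is a description. At 1 dpi the mean was -1.22 ± 2.05 in needles, against 5.53 ± 1.20 at the base (SD, n = 3 each), a log2 difference of -6.75 (SE 1.35, adjusted p = 3.42e-05). At 3 dpi it was -0.74 ± 0.99 in needles, against 6.87 ± 0.20 at the base (SD, n = 3 each), a difference of -7.61 (adjusted p = 4.62e-06). The arrays were apart at both times, and 29.8% and 30.8% of 9175 targets were called. At 1 wpi the difference was -6.89 (adjusted p = 2.72e-05) and at 3 wpi, where needles had their lowest mean of -3.34 ± 1.28, it was -9.58 or 767-fold (adjusted p = 4.70e-08), with 28.8% and 29.2% of targets called. These 4 calls held without any single array and with slide as a block.

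At 0 hpi the difference of needles from base was -1.45 (SE 1.35, adjusted p = 0.382) and at 3 hpi it was -2.28 (adjusted p = 0.144), with arrays apart at both times and 22.8% and 27.9% of targets called. With slide as a block the difference at 3 hpi was called (adjusted p = 0.0361), and without base 3 hpi replicate 2 it was -0.89 (adjusted p = 0.633). At 0 hpe, given as a description, the mean was -1.47 ± 1.57 in needles, against -2.94 ± 0.80 at the base, and at 6 wpi it was -1.67 ± 1.27 in needles, against 6.19 ± 0.76 at the base (SD, n = 3 each). The change from 0 hpi to 3 wpi in needles minus that at the base, a comparison added after the values were seen, was -8.13 (SE 1.91, adjusted p = 0.000627), where 27.7% of targets were called. The median difference of needles from base over all targets was between -0.26 and -0.11 from 3 hpi to 3 wpi, small beside these values.

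In the order of the 24 group means of reCj15810, the base held the first 5 places. These were 3 dpi (6.87), 1 wpi (6.87), 3 wpi (6.24), 6 wpi (6.19) and 1 dpi (5.53), and each overlapped its neighbour. A gap of 3.71 log2 units without overlap separated them from the next group, the middle at 3 dpi (1.81). Below it, the base at 3 hpi and the middle at 3 hpi, 1 dpi, 1 wpi, 3 wpi and 6 wpi had means between 1.71 and 0.19, and all needle groups, at -0.02 and less, came after them. The lowest places were the middle at 0 hpe (-2.84), the base at 0 hpe (-2.94), the needles at 0 hpi (-2.95) and the needles at 3 wpi (-3.34). Of the 23 pairs of neighbours, only the base at 1 dpi and the middle at 3 dpi did not overlap.

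3 targets on the array had AT4G03140 as best match, and they had 2 patterns. reCj15811, whose contig number follows that of reCj15810, had -0.13, -1.51 and -2.52 at the base at 0 hpe and 6.57, 6.54 and 6.91 at 3 dpi. Its 6 wpi arrays had 5.16, 6.54 and 5.39 for the base, against -0.17, 5.28 and -3.86 for the middle, where replicate 2 was again the highest and replicate 3 the lowest. Its group means correlated with those of reCj15810 with r = 0.98 over the 24 groups, and its values with r = 0.98 over the 72 arrays, as a description over arrays that share RNA and slides. No probe sequence was available to this work, so signal from 1 transcript on both sets of spots was not tested.

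reCj15811 was called in most of the comparisons in which reCj15810 was. Base minus middle was 4.76 at 3 dpi (SE 1.35, adjusted p = 0.00927), 5.18 at 1 wpi (adjusted p = 0.00325) and 4.77 at 3 wpi (adjusted p = 0.00453), and the base at 1 dpi against 3 hpi was 3.37 (adjusted p = 0.0490). In the middle its differences from 0 hpe were 2.48 at 3 hpi (adjusted p = 0.139), 2.74 at 1 dpi (adjusted p = 0.1001) and 3.07 at 3 dpi (adjusted p = 0.102), and none was called. Needles minus base was -4.33 at 1 dpi (adjusted p = 0.00216) and -7.26 at 3 wpi (adjusted p = 1.69e-06).

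The third, reCj28101, was a target of the needles. It was well above background on 24 of 24 needle arrays, on 3 of 24 base arrays and on 4 of 24 middle arrays, so it was tested in needles only. Its needle values were 1.37, 1.95 and 0.96 at 0 hpe, 0.19, 0.30 and -0.50 at 3 wpi and 0.10, -0.06 and -0.03 at 6 wpi. Both late groups were below all arrays of 0 hpe. The fall from 0 hpe was -1.43 at 3 wpi (SE 0.28, adjusted p = 0.000971) and -1.42 at 6 wpi (SE 0.28, adjusted p = 0.000689), and at 1 dpi the difference was -0.81 (adjusted p = 0.0623), which was not called.

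**Figure D3:**
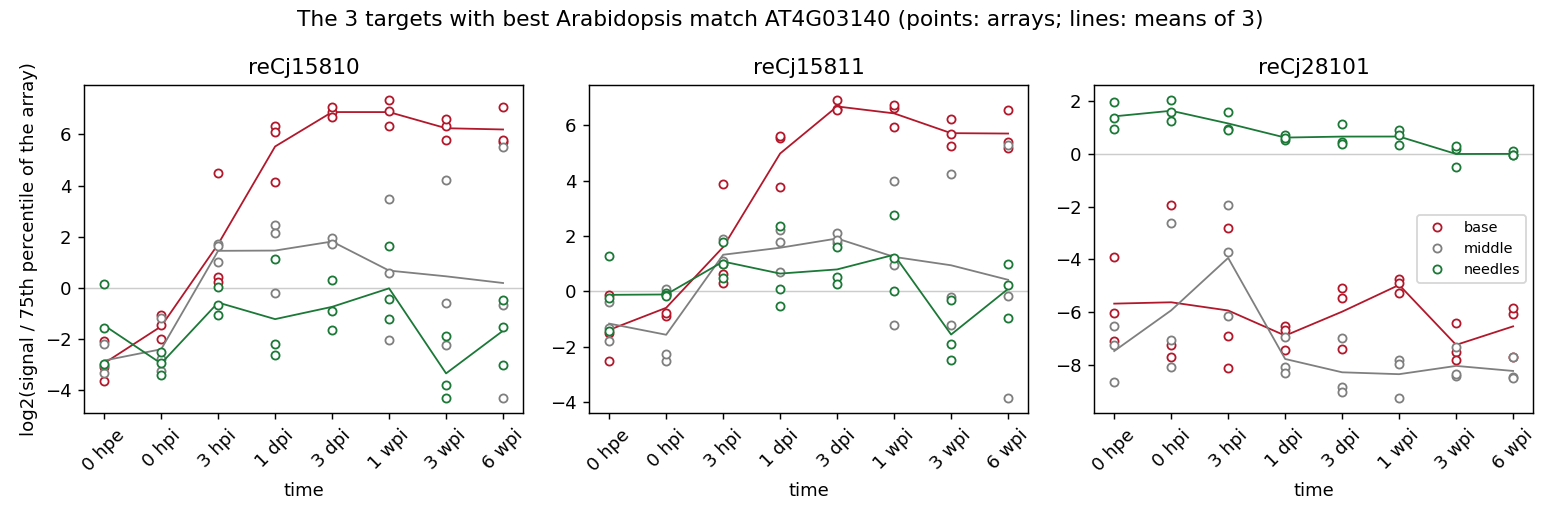
The 3 targets whose best Arabidopsis match is AT4G03140, each on its own log2 axis, against time; points are arrays and lines means of 3, coloured by part. reCj15810 and reCj15811 are highest at the base from 1 dpi on, and reCj28101 lies between -0.50 and 2.05 in needles, with only 3 base and 4 middle arrays well above background. Axes differ between panels, and levels are not to be compared between targets.

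43 other targets with an annotation as Rossmann-fold protein were taken from the readable portion of the study's annotation, of which 22 were detected on every base and middle array. Of these 22, 3 were called higher, 3 lower and 16 not at all when the base at 6 wpi was set against 0 hpe, where 16.8% of all 9592 targets were called higher and 10.7% lower. This is the comparison whose rise chose reCj15810, so its values are given here as a description of the list. The median difference was -0.02 over the 22 and 0.16 over all targets. The 3 that rose were reCj15811, with a difference of 7.08, reCj15054 and reCj26349. reCj15811 followed reCj15810 over the arrays (r = 0.98), so its rise here was not independent of the choice. reCj15054, annotated as the short-chain dehydrogenase SDR4, had 3.29 ± 0.25 at 6 wpi against 1.84 ± 0.68 at 0 hpe (SD, n = 3 each), with arrays apart and a difference of 1.44 (SE 0.48, adjusted p = 0.0115). reCj26349 had -1.95, -2.98 and -2.03 at 6 wpi against -3.83, -4.28 and -1.92 at 0 hpe, which overlapped, a difference of 1.02 (SE 0.37, adjusted p = 0.0197).

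Of the 3 that fell, reCj26691 and reCj26109 had AT1G75290 as best match and reCj14319 had AT5G58490. reCj26691 had 0.25, -1.11 and 2.26 at 6 wpi against 2.17, 4.24 and 4.96 at 0 hpe, a difference of -3.32 (SE 0.71, adjusted p = 0.000226), with replicate 3 at 6 wpi above replicate 1 at 0 hpe. reCj26109 differed by -1.42 (SE 0.34, adjusted p = 0.000737) and reCj14319 by -1.29 (SE 0.31, adjusted p = 0.000815). With slide as a block none of the 22 was called in this comparison, whose base arrays of 0 hpe and 6 wpi shared no slide. By the choice, the 9.14 of reCj15810 had to be the largest difference, and the 7.08 of reCj15811 was not independent of it. The other 21 targets lay between -3.32 and 1.44.

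In base against middle at 3 wpi, 1 of the 22 was called higher, reCj15811, and 2 lower, where 11.8% of all targets were called higher and 9.34% lower. The median difference was -0.20 over the 22 and 0.16 over all targets. reCj14319 was -1.50 ± 0.24 at the base, against -0.29 ± 0.48 in the middle (SD, n = 3 each), a difference of -1.215 (SE 0.31, adjusted p = 0.00183). reCj15583, annotated as SDR2, was -0.88 ± 0.29 at the base, against 1.63 ± 0.77 in the middle (SD, n = 3 each), a difference of -2.51 (SE 0.90, adjusted p = 0.0227). The count of lower calls rested on single arrays and was 0 without middle 3 wpi replicate 2 and 1 without replicate 3.

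Among the 9174 other targets detected on every array, the 6 with the highest Pearson correlation with reCj15810 over the 24 group means were ranked, as a description without a test. They were reCj15811 (r = 0.98), reCj30788 (r = 0.97), reCj12192 (r = 0.96), reCj19946 (r = 0.96), reCj21214 (r = 0.95) and reCj22087 (r = 0.95). reCj30788 is annotated as a leucine-rich repeat transmembrane protein kinase and reCj12192 as a concanavalin A-like lectin kinase, both of kinase families with members that sense signals outside the cell. reCj19946 is annotated as acyl-CoA oxidase 3, an enzyme of fatty acid breakdown in the peroxisome, and reCj21214 as a transporter of the major facilitator superfamily. The annotation used here holds no name for reCj22087.

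The likeness was in shape and less in size. The base at 6 wpi minus 0 hpe was 9.14 for reCj15810, 5.06 for reCj30788, 3.82 for reCj21214, 3.47 for reCj22087, 2.06 for reCj12192 and 1.28 for reCj19946. Within the 8 base means the 6 targets had r between 0.96 and 1.00 with reCj15810, within the 8 middle means between 0.78 and 0.98, and within the 8 needle means between 0.50 and 0.92. Over the 72 arrays r was between 0.91 and 0.98, and ranked by it reCj12192 came at place 12 and reCj19946 at place 11. The second largest rise, reCj32787, had r = 0.94 over the group means.

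The single arrays on which reCj15810 was high were also high for these targets. On base 3 hpi replicate 2, on middle 6 wpi replicate 2 and on needle 1 dpi replicate 2, all 6 targets were higher than on the other arrays of the group. On middle 3 wpi replicate 1 this held for 5 of the 6 and on middle 1 wpi replicate 1 for 4. Over all 9175 targets the same array was the highest of its group for 47.1% at base 3 hpi, 48.1% at middle 6 wpi, 32.8% at needle 1 dpi, 23.2% at middle 3 wpi and 26.2% at middle 1 wpi. On middle 6 wpi replicate 2, reCj32787 had 6.25, against -0.53 and -2.26 on the others. The 6 targets were chosen for their likeness over these arrays, so the counts are a description.

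The 3 targets with the lowest correlation were reCj31077 (r = -0.96), reCj30404 (r = -0.95) and reCj13818 (r = -0.95), and the annotation used here names none of them. At the base at 6 wpi their differences from 0 hpe were -2.91, -3.07 and -3.03. At the base reCj31077 had a mean of 3.43 for 0 hpe, 2.04 for 3 hpi and 0.52 for 6 wpi, and its needle means stayed between 3.06 and 3.95. Its order over the groups thus ran opposite to that of reCj15810, with the base from 1 dpi on at the bottom.

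**Figure D4:**
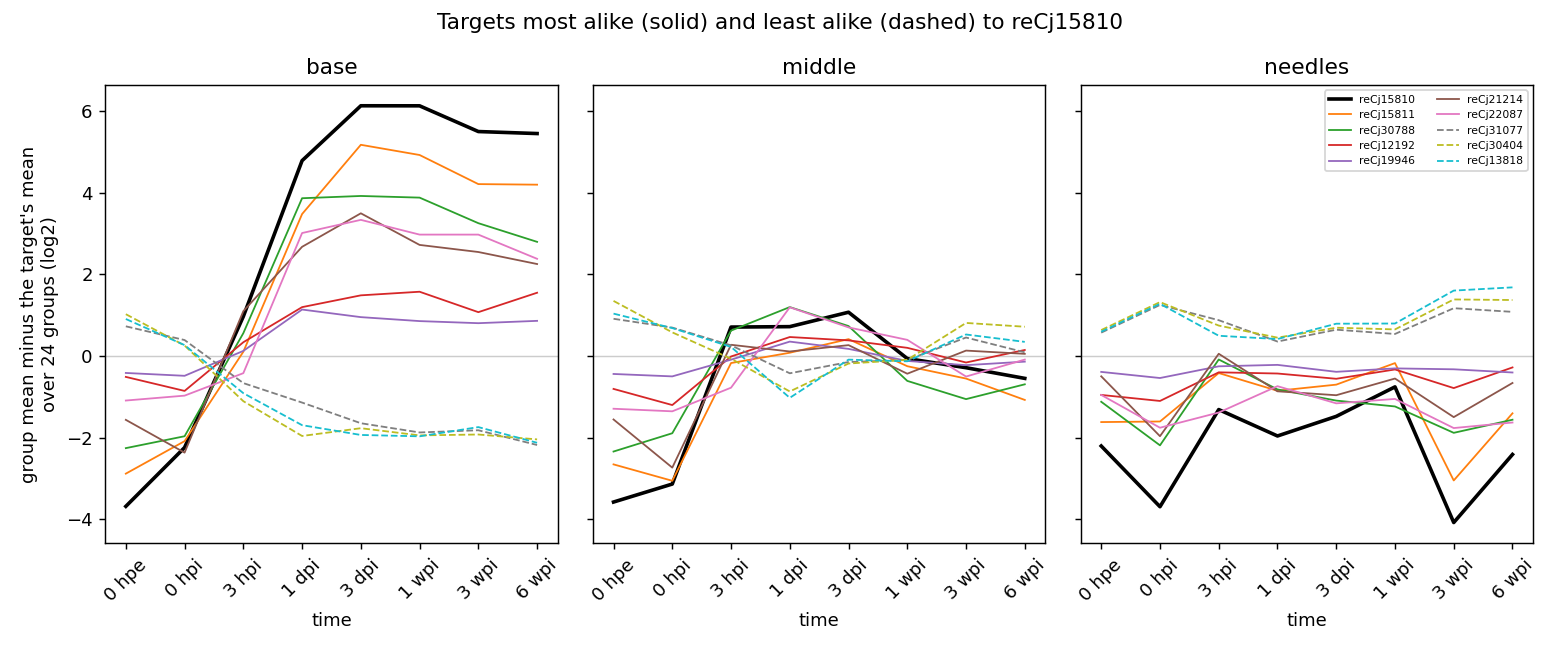
Group means of reCj15810 (black), of the 6 targets with the highest correlation with it over the 24 group means (solid) and of the 3 with the lowest (dashed), each minus its own mean over the 24 groups, in log2 units, by part and time. From 0 hpe to 6 wpi the base line of reCj15810 goes up by 9.14, those of the 6 targets by 1.28 to 7.08, and those of the 3 targets go down by 2.91 to 3.07.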

How the data were processed

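72 samples (3 per part and time) were each hybridized to 1 Agilent 1-colour array. The authors deposited Agilent Feature Extraction (version 11.5 per the labels) intensity values, the background-subtracted processed signal of each spot with its flags, not normalized between arrays. A second deposited file holds the authors' log2 values scaled to the 75th percentile. Each probe is centred over the arrays there, as inferred from the values. reCj15810 differed from it by at most 0.00644 after centring. Column medians of that table ran from -0.29 to 0.55.

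Uniform spots of a target were averaged, and the log2 mean was scaled by the 75th percentile of all targets of that array. Tested were targets whose spots all passed the uniformity and well-above-background flags and averaged over 10 in signal, on every array of the parts compared: 9175 for all parts, 9592 for base and middle and 12523 for needles. limma 3.58.1 in R 4.3.3 (lmFit, eBayes) was fitted per list without a block, with Benjamini-Hochberg adjustment. The code was tested on simulated data. Figures and descriptions used Python.

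reCj15810, the Rossmann-fold list and the comparisons were chosen with earlier results of these data known. Named targets were reCj15810, the others with best match AT4G03140, the 3 largest called rises and falls among the Rossmann-fold targets, the 6 most and 3 least correlated targets and the second largest rise. reCj15583 was named after its values were seen. Same-numbered base and middle arrays deviated together in every pair (r above 0.1) only at 0 hpe, 3 dpi and 6 wpi, so the numbers were not taken to pair samples in general. Alternatives were another detection flag, no filter, quantile normalization, normexp (on the median signals, since the files hold no mean signal), the deposited table, the median of spots, only the arrays compared, slide and replicate blocks and leaving out single arrays. The number of arrays limits the precision.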

Additional observations from a re-analysis of the deposited data

Results flagged for a closer look

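The change of reCj15810 from 0 hpi to 3 wpi differed between needles and base, by -8.13 (log2, SE 1.91, limma adjusted p = 0.000627). This comparison was added after the values were seen, so its p is not that of a planned test. At the base all 3 arrays of 3 wpi were above all 3 of 0 hpi, and in needles the arrays of both times overlapped.

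All needle arrays of 3 wpi were below those of 3 hpi, and all base arrays of 3 wpi were above those of 3 hpi. The needle change in group means minus the base change was -7.30. The difference was not tested, and the pair of times was picked from all pairs after the values were seen.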

How the results depend on the processing

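Limits: each group had 3 arrays, and reCj15810 had a spread between arrays above that of most targets. With that spread estimated jointly over the groups of a fit, differences of several-fold could not be resolved within a part. The target was well above background on all 72 arrays, so detection did not limit it. Its values in the deposited table gave the same side of the threshold in every comparison. Base minus middle at 3 dpi, 1 wpi and 3 wpi and needles minus base from 1 dpi to 3 wpi kept direction and call under every alternative run; base and middle shared no slide (consensus correlation of the random slide block 0.00456), so slide was not tested there. The change from 0 hpi to 3 wpi in needles minus that at the base also kept direction and call under every alternative and without any single array. The other calls of reCj15810 did not, and the cause was not tested.

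Base minus middle at 1 dpi was called without a filter on dim spots (4.07, adjusted p = 0.0444), with normexp (3.91, adjusted p = 0.0407), on only the arrays compared (4.07, adjusted p = 0.0323) and with the replicate number as a block (4.07, adjusted p = 0.0274). The base at 1 dpi against 3 hpi was not called without the filter (3.82, adjusted p = 0.0628) or on only the arrays compared (3.82, adjusted p = 0.0716). The base change from 0 hpi to 3 wpi less the middle change was called on only the arrays compared (4.89, adjusted p = 0.0465) and with the replicate block (4.89, adjusted p = 0.0494), and the block changed no other call. Needles minus base was called at 0 hpi on only the arrays compared (-1.45, adjusted p = 0.00421) and at 3 hpi with slide as a block (-2.28). With slide as a block the middle differed from 0 hpe by 2.87 at 3 hpi, 3.34 at 1 dpi and 3.69 at 3 dpi. None of these was called, and the difference was -1.02 at 0 hpi. Needles turned to 1.20 at 3 wpi and 2.87 at 6 wpi, times that shared no slide with their 0 hpe arrays. Uncalled steps at the base turned to 0.18 at 3 wpi against 1 wpi with quantile normalization and to 0.0072 at 1 wpi against 3 dpi with the median of spots.

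Of the other Rossmann-fold targets at 6 wpi against 0 hpe at the base, 9 of 30 were called lower by positive and significant spots, 7 of 43 higher and 9 of 43 lower without a filter, and 0 of 22 higher and 0 lower with slide as a block. In base against middle at 3 wpi, 5 of 30 were called lower by positive and significant spots, 5 of 43 higher and 5 of 43 lower without a filter, 1 of 22 lower with normexp and 2 of 22 higher on only the arrays compared. The other flag and no filter took in targets that were not among the 22. Calls over all targets grew as well in base against middle at 3 wpi, counted in either direction. They were 2026 of 9592 in the main fit and 2738 of 11909 by positive and significant spots. Without a filter 6398 of all targets on the array were called, a larger share than in the main fit. For 6 wpi against 0 hpe such counts under these settings are not given, so the Rossmann-fold counts there lack that background.

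Leaving out single arrays gave base minus middle between -1.13 and 1.00 at 3 hpi, 3.24 and 4.76 at 1 dpi, 4.84 and 7.59 at 1 wpi and 4.44 and 7.66 at 3 wpi, and its change between 3.54 and 6.76. At the base, 1 dpi against 3 hpi lay between 3.08 and 5.21 and 1 wpi against 3 dpi between -0.24 and 0.27. The middle against 0 hpe lay between -0.17 and 0.86 at 0 hpi, 4.04 and 4.61 at 3 hpi, 3.81 and 5.13 at 1 dpi, 4.40 and 4.98 at 3 dpi, 2.12 and 4.87 at 1 wpi, 1.42 and 4.64 at 3 wpi and 0.37 and 5.28 at 6 wpi. Needles minus base at 3 hpi lay between -3.02 and -0.89. Needles against 0 hpe lay between -0.93 and 1.05 at 1 dpi, -0.030 and 1.53 at 3 dpi and -0.96 and 0.60 at 6 wpi. Between 1 and 4 Rossmann-fold targets were called lower at 6 wpi, and between 0 and 3 in base against middle. With an array left out, the 2 that remain were assumed to vary like the other groups.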
